A study of Homo sapiens with 30 samples.

Results

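ATP-binding cassette (ABC) drug efflux pumps were followed at the RNA level in HT29 cells treated with extracts of traditional herbal formulas. The genes were chosen by name: the 7 of 60675 rows of the deposited count table whose Ensembl identifiers carry the symbols ABCG2, ABCB1, ABCC1, ABCC2, ABCC3, ABCC4 and ABCC5. All 7 were found, and all 7 passed the filter on low counts in every comparison. HT29 is an established human colorectal adenocarcinoma line, so each value describes 1 line. RNA sequencing of 30 libraries measured gene expression after 24 h in 13 groups. The 3 vehicle libraries came from cells given DMSO, at 0.1% by the labels and at 2% by the design text. The other 12 groups received an ethanol extract at 500, 100 or 20 µg/mL, with 3 libraries at each dose of Soshiho-tang and of Yijin-tang, 2 at each dose of Okbyeongpung-san and 1 at each dose of Soyo-san. The design text states that extracts whose IC20 fell short of 500 µg/mL were given at that IC20 and diluted from there, while every label reads 500, 100 or 20 µg/mL, so the doses printed here are uncertain. Whether replicates came from separate cultures is not stated in the labels, and p-values then cover only the spread between these libraries, which may be technical.

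ABC efflux pumps use ATP to move drugs, conjugates and signalling molecules out of the cell. ABCG2 and ABCB1 sit on the apical membrane of the gut epithelium and limit the uptake of drugs and dietary compounds, and ABCC1, ABCC2 and ABCC3 export mainly glutathione, glucuronide and sulfate conjugates. ABCC4 and ABCC5 carry cyclic nucleotides and nucleoside analogues. In cell culture, transcription of several of these genes is known to respond to the aryl hydrocarbon receptor (AHR), to the oxidative stress factor NRF2 and to the nuclear receptors PXR and CAR.

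Library totals lay between 18.5 M and 36.2 M expected counts, with a median of 24.2 M. By their names the 3 vehicle libraries belong to a library set of their own, so an effect of that set and an effect of vehicle cannot be told apart, and each formula is therefore also compared between its own doses. The 9 libraries of Okbyeongpung-san and Soyo-san share a set by name, and the 18 of Soshiho-tang and Yijin-tang share another. Between these sets an effect of formula and an effect of set cannot be told apart. Titles give batch D for 6 libraries, the 3 of Soyo-san and each replicate 3 of Okbyeongpung-san, and batch E for the other 24. The 12 colon epithelium markers summed to between 11400 and 14400 CPM (counts scaled to a common library total), and 12 markers of leukocytes, endothelium, stroma, muscle and liver to between 7.64 and 12.8 CPM, with PTPRC, CD3E, ALB and APOA2 at 0 in every vehicle library. None of these markers of other cell types was at 0 in all extract libraries. Of them, 4 had a mean of at least 1 CPM in vehicle and 3 in the extract libraries. Replicate 2 of Okbyeongpung-san at 100 µg/mL lay near the vehicle libraries in some genes, such as ABCC4 (88.3 CPM against 77.4 to 87.3). It did not in ABCG2 (79.2 CPM against 62.0 to 64.2). The ABCG2 and ABCC4 results that rest on this library are given with and without it. Mitochondrial transcripts took 11.48% to 13.93% of counts in vehicle and 9.06% to 12.87% in the extract libraries, and their part in the results was not tested. In bulk RNA, a lower number of expressing cells and less RNA per cell cannot be told apart.

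The pumps spanned a wide range of levels. Per kb of exon, over all 30 libraries, the mean level was 48.1 CPM for ABCC3, 16.3 for ABCG2, 15.0 for ABCC1 and 11.0 for ABCC4. It was 1.32 CPM per kb for ABCC5, 0.178 for ABCC2 and 0.0844 for ABCB1. ABCC3, the basolateral exporter of glucuronides, was thus the highest of the 7, and ABCB1, the pump first described as P-glycoprotein, the lowest. With the length of the principal transcript in place of all exons the order was the same, from 80.9 CPM per kb for ABCC3 to 0.103 for ABCB1. In the vehicle libraries alone ABCC1 stood above ABCG2, at 14.8 against 12.5 CPM per kb.

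**Figure D1:**
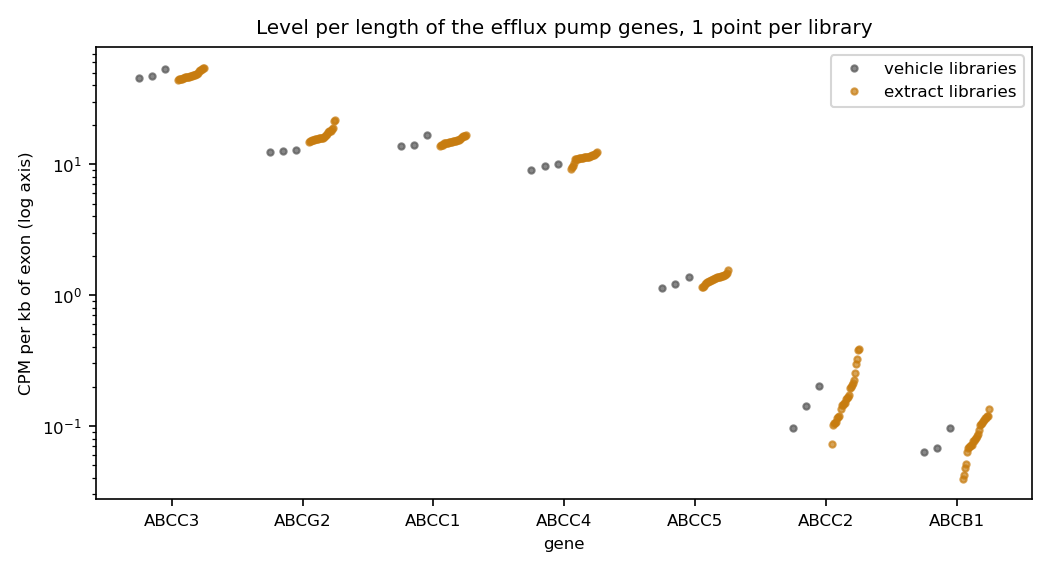
Level of each pump gene in CPM per kb of exon on a log axis, with 1 point per library. Vehicle libraries are grey and extract libraries orange, drawn in rising order within a gene. The 4 upper genes lie above 8 CPM per kb in every library, and ABCC2 and ABCB1 lie below 0.4 in every library.

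ABCG2, the apical pump also called BCRP, was higher than in vehicle, a library set of its own, with every formula and dose tested with 3 libraries. In the vehicle libraries its level was 62.0, 64.2 and 63.1 CPM. In the 9 libraries at 20 µg/mL it lay between 74.4 and 79.7 CPM with a median of 77.3, and in the 9 at 100 µg/mL between 76.7 and 85.6 with a median of 79.5. In the 9 at 500 µg/mL it lay between 84.2 and 109 CPM with a median of 90.5. All 27 extract libraries were above all 3 vehicle libraries, and all 9 at 500 µg/mL were above all 9 at 20 µg/mL. Of 13197 genes with a mean of at least 1 CPM, 2.74% had every extract library above every vehicle library, and 2.97% had every 500 µg/mL library above every 20 µg/mL library. The reverse orders held for 2.55% and 2.61% of these genes and for no pump. Of the other pumps with such a mean, ABCC2 also met the second condition and none met the first. The 1 pump left out by that minimum was ABCB1, whose extract libraries overlapped those of vehicle.

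The gene (ENSG00000118777) lies on the minus strand of chromosome 4 from 88090264 to 88231322 (GRCh38, GENCODE 29), and its principal transcript has 16 exons. Promoter sequences are shown for 3 pumps that were called between 500 and 20 µg/mL of Soshiho-tang, ABCG2 and ABCC2, which rose there, and ABCC4, which fell. They are the 250 bases before a RefSeq start site on GRCh38.p14, read 5′ to 3′ on the strand of the gene, at chr4:88158910-88159159 for ABCG2, chr10:99782390-99782639 for ABCC2 and chr13:95301452-95301701 for ABCC4. Capitals mark, on either strand, GCGTG, the core letters of the AHR response element, and TGACNNNGC, the core letters of the antioxidant response element that NRF2 binds.
ABCG2 promoter: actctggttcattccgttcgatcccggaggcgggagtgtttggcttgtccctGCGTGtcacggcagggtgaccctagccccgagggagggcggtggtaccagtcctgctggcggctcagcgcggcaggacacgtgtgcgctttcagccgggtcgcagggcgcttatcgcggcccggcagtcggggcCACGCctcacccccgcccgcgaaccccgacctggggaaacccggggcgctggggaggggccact
ABCC2 promoter: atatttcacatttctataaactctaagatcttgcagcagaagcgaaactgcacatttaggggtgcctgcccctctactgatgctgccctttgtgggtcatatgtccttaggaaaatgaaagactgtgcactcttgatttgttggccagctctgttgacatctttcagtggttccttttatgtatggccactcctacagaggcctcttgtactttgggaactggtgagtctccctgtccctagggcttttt
ABCC4 promoter: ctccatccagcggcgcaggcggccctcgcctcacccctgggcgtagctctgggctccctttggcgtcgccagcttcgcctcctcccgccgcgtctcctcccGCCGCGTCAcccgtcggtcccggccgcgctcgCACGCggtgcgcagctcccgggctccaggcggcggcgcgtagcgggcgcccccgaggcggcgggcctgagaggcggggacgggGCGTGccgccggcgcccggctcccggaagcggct
The ABCG2 window held GCGTG at 2 places and no TGACNNNGC. The ABCC4 window held GCGTG at 2 places and TGACNNNGC at 1, with no overlap between them, and the ABCC2 window held neither. The windows of ABCB1 and ABCC5, which were not called and are not shown, held GCGTG at 1 place in ABCB1 and no other match. Over 35116 promoter windows of the same length, 32.2% held GCGTG and 10.9% held TGACNNNGC. These shares are not matched for G and C content, which was 71.2% for ABCG2, 80.4% for ABCC4 and 45.6% for ABCC2. A match describes these letters and is not a binding site. The table used gives 5 start sites for ABCG2, of which the one nearest to the start of the principal transcript is shown, and it holds no window for ABCC1 and ABCC3.

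With Soshiho-tang, ABCG2 stood at 76.8 ± 2.66 CPM (SD, n = 3) at 20 µg/mL, 81.6 ± 1.44 at 100 µg/mL and 93.0 ± 3.12 at 500 µg/mL, against 63.1 ± 1.09 in vehicle. The 3 libraries at 500 µg/mL, at 95.9, 89.7 and 93.5 CPM, did not overlap those of any other dose of the formula. The rise against vehicle was 0.55 ± 0.04 on the log2 scale at 500 µg/mL (fold change ± SE, adjusted p = 3e-11 by edgeR's quasi-likelihood test with Benjamini-Hochberg adjustment over all genes, as for each adjusted p below). It was 0.37 ± 0.04 at 100 µg/mL (adjusted p = 9.7e-07) and 0.28 ± 0.04 at 20 µg/mL (adjusted p = 3.5e-05). Between this formula's 20 and 500 µg/mL groups the rise at 500 µg/mL was 0.27 ± 0.04 (adjusted p = 1e-05). These 4 calls were kept under every alternative run.

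Yijin-tang gave a like series of levels, 77.6 ± 1.92 CPM at 20 µg/mL, 78.2 ± 1.32 at 100 µg/mL and 87.7 ± 3.19 at 500 µg/mL (SD, n = 3 each). The libraries at 500 µg/mL, at 90.5, 84.2 and 88.2 CPM, were above all 6 at the lower doses, which overlapped each other. The log2 fold change against vehicle was 0.47 ± 0.04 at 500 µg/mL (adjusted p = 2.2e-08), 0.31 ± 0.04 at 100 µg/mL (adjusted p = 1e-05) and 0.30 ± 0.04 at 20 µg/mL (adjusted p = 1.9e-05). Against 20 µg/mL the rise at 500 µg/mL was 0.18 ± 0.04 (adjusted p = 0.016). That last call was lost without replicate 1 or 2 at 20 µg/mL (adjusted p = 0.068 and 0.12) and without replicate 1 or 3 at 500 µg/mL (adjusted p = 0.13 and 0.073).

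The highest ABCG2 levels of the series were those of Okbyeongpung-san at 500 µg/mL, 109 and 108 CPM, against 79.2 and 85.6 at 100 µg/mL and 79.0 and 77.3 at 20 µg/mL. These 2 libraries were above every other library of the series, though those of Soshiho-tang and Yijin-tang belong to another library set. The log2 fold change against vehicle was 0.78 ± 0.06 (adjusted p = 2.9e-05), a fold of 1.72, and against 20 µg/mL it was 0.47 ± 0.07 (adjusted p = 0.0065). The pair of replicates comes from the 2 labelled batches, and within them the log2 ratio of 500 to 20 µg/mL was 0.46 in batch E and 0.48 in batch D. With the replicate as a block, ABCG2 stayed the 1 pump called between these doses, among 155 genes in place of 88. The call between doses was lost without any 1 of the 4 libraries, at adjusted p = 0.11 and 0.21 without replicate 2 or 3 at 20 µg/mL and 0.12 and 0.11 without replicate 2 or 3 at 500 µg/mL. Batch D holds no vehicle library, so the comparison with vehicle has a within-batch value in batch E only, where the library at 500 µg/mL had 109 CPM.

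At the lower doses of Okbyeongpung-san the calls for ABCG2 were less firm. At 100 µg/mL the log2 fold change against vehicle was 0.39 ± 0.06 (adjusted p = 0.029). The call was lost with a term for batch (0.38, adjusted p = 0.15) and in a fit of these 2 groups alone (0.38, adjusted p = 0.27). It was also lost without replicate 2 or 3 of the group (0.44 and 0.34, adjusted p = 0.099 and 0.23) or replicate 3 of vehicle (0.39, adjusted p = 0.16). At 20 µg/mL the value of 0.31 ± 0.06 did not pass (adjusted p = 0.06). It passed with DESeq2 (adjusted p = 0.0075), without a filter (adjusted p = 0.011), in a fit of all 30 libraries (adjusted p = 7.9e-05), without replicate 1 or 2 of vehicle (adjusted p = 0.016 and 0.025) and without replicate 2 at 100 µg/mL (adjusted p = 0.037). Soyo-san, with 1 library per dose and no test, had ABCG2 at 78.1, 79.5 and 90.5 CPM at 20, 100 and 500 µg/mL. Exact Poisson intervals, which cover counting error only, were 74.7 to 81.7, 76.1 to 83.0 and 86.7 to 94.5 CPM.

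In the order of the 13 group means, vehicle was lowest, the 4 groups at 20 µg/mL followed, and the 4 groups at 500 µg/mL were highest. Vehicle did not overlap its neighbour. The groups at 20 µg/mL overlapped each other in the range of their libraries, and 7 of the 12 neighbouring pairs in all did. At 500 µg/mL the difference between Soshiho-tang and Yijin-tang was 0.08 ± 0.04 (adjusted p = 0.22). The difference in the step from 20 to 500 µg/mL was 0.10 ± 0.06 between Soshiho-tang and Yijin-tang (adjusted p = 0.45). It was 0.29 ± 0.07 (adjusted p = 0.13) between Okbyeongpung-san and Yijin-tang and 0.19 ± 0.07 (adjusted p = 0.16) between Okbyeongpung-san and Soshiho-tang, in comparisons added after the ABCG2 levels were seen. The former of these added comparisons passed with DESeq2 (adjusted p = 0.021) and in a fit of the groups compared (adjusted p = 0.012). In these 2 comparisons none of the 7 pumps was called by edgeR, with 1 below an unadjusted p of 0.05 in each, and DESeq2 called 0 against Soshiho-tang and 1 against Yijin-tang, where edgeR called 1.74% (0.942% higher and 0.799% lower) and 0.0533% (0.0415% higher and 0.0118% lower) of all genes. A p that misses the threshold does not show that the formulas act alike.

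**Figure D2:**
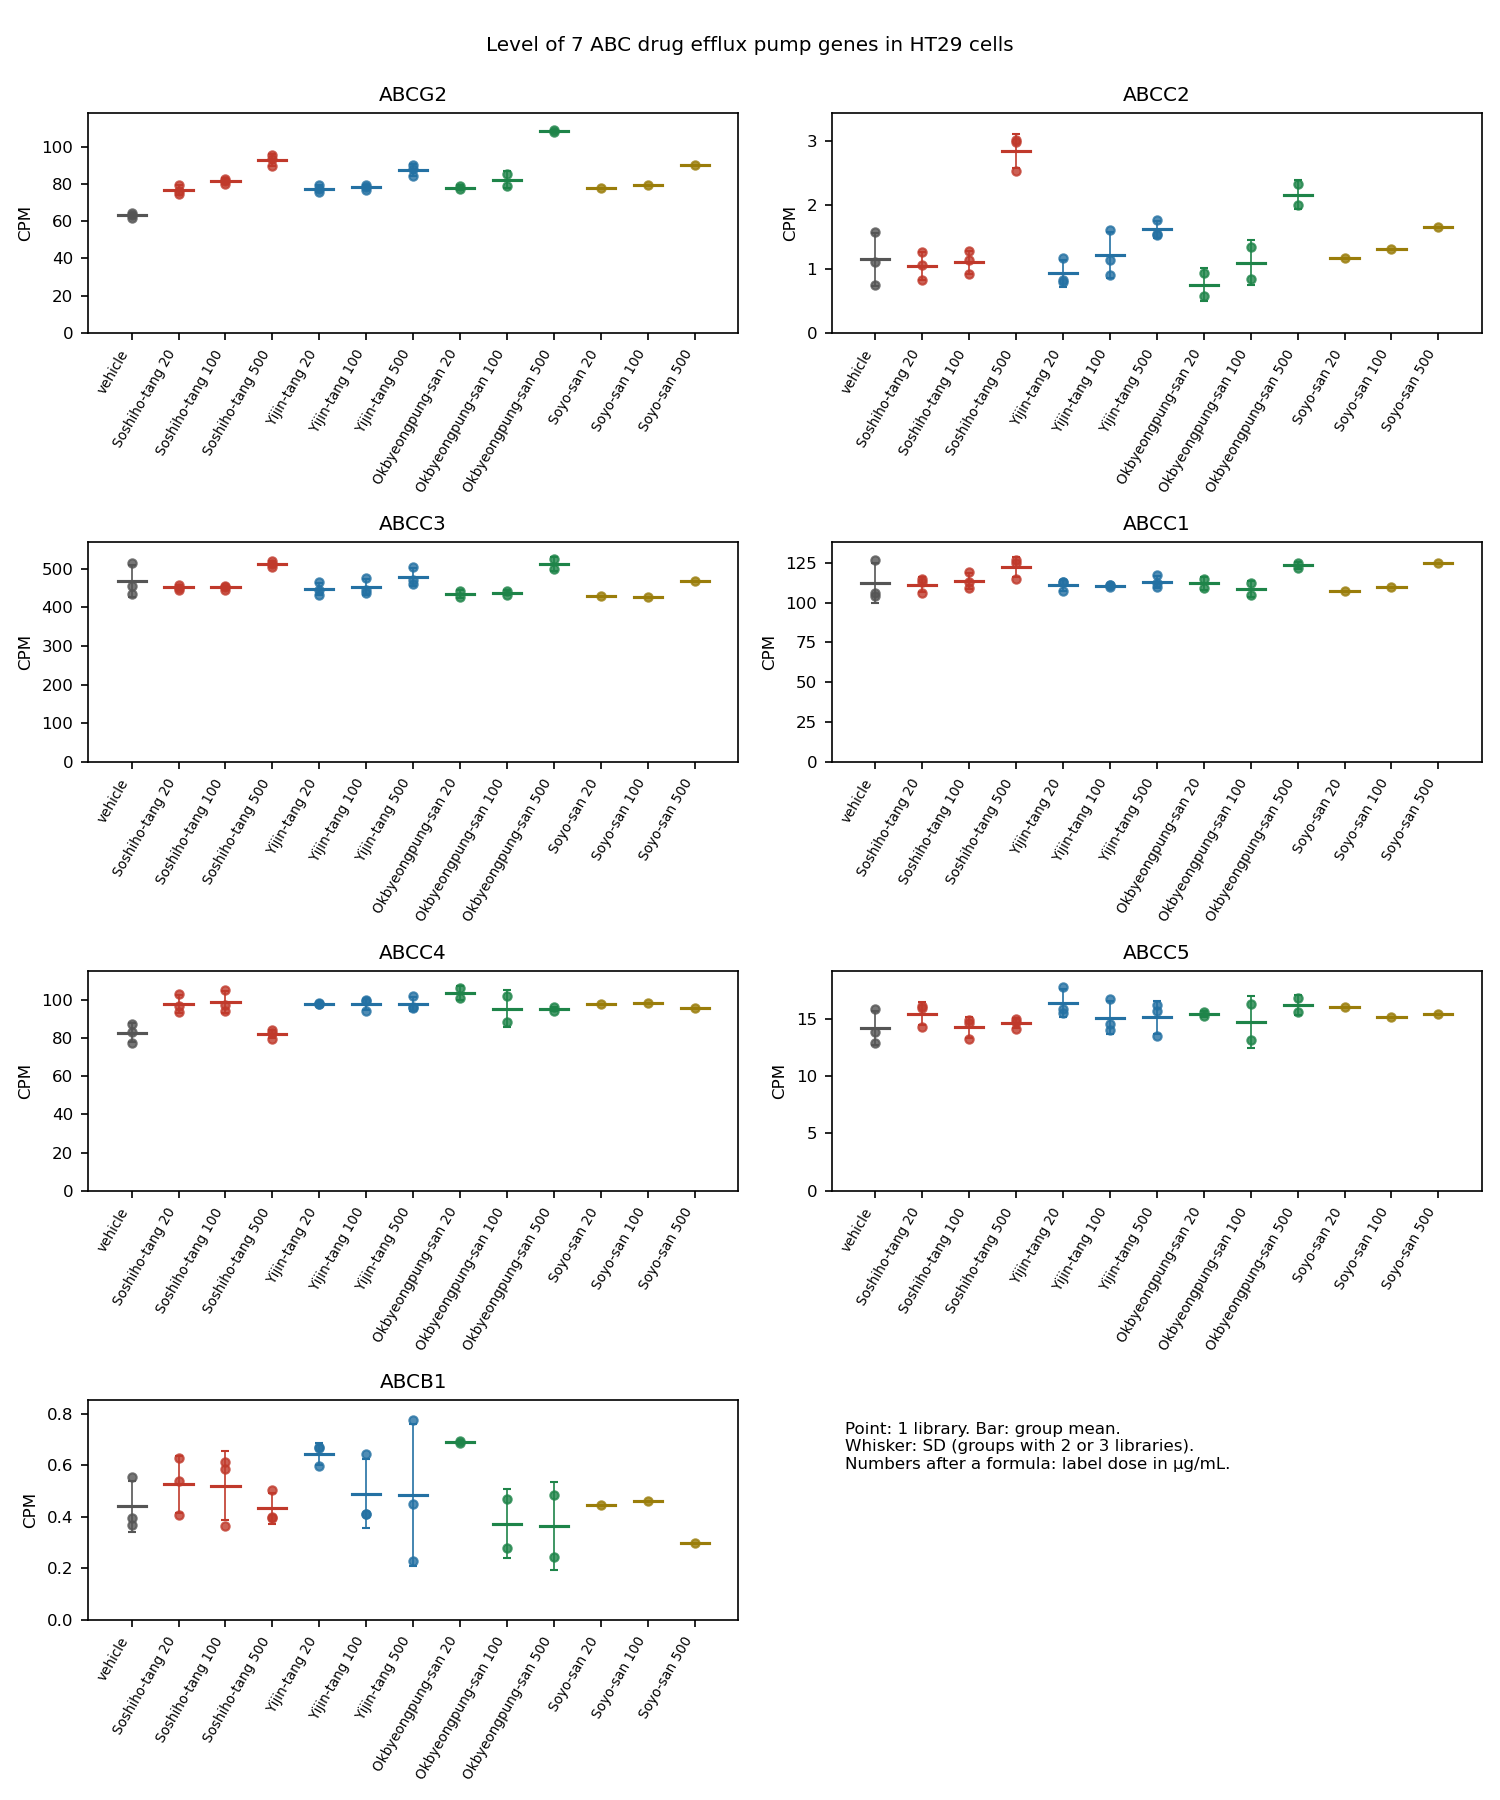
Level of each pump gene in CPM by group, with 1 point per library, the group mean as a bar and the SD as a whisker for groups of 2 or 3 libraries. Each vertical axis starts at 0 and has its own scale. For ABCG2 the vehicle libraries lie between 62.0 and 64.2 CPM and every extract library lies above them, and the Soshiho-tang libraries at 500 µg/mL have the highest ABCC2 levels.

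ABCC2, the apical exporter of bilirubin glucuronides and drug conjugates also called MRP2, had a low level that was highest with Soshiho-tang at 500 µg/mL. The gene (ENSG00000023839) lies on the plus strand of chromosome 10 from 99782640 to 99852594. Its libraries held 14 to 70 counts, so counting error is large. In vehicle the level was 1.58, 0.752 and 1.11 CPM, and with Soshiho-tang at 500 µg/mL it was 2.98, 2.53 and 3.01 CPM. These 3 libraries were above all others of the series. The log2 fold change was 1.25 ± 0.22 against vehicle (adjusted p = 5e-05) and 1.43 ± 0.23 against 20 µg/mL (adjusted p = 3e-05), where the level was 1.05 CPM on average. Both calls were kept in all alternatives run. At 100 and 20 µg/mL the differences from vehicle were -0.11 and -0.18 (adjusted p = 0.82 and 0.69).

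The other formulas also had their highest ABCC2 level at 500 µg/mL, with 9 libraries between 1.53 and 3.01 CPM in all against 9 between 0.571 and 1.26 CPM at 20 µg/mL. Okbyeongpung-san had 2.00 and 2.32 CPM at 500 µg/mL, and the change of 1.53 ± 0.37 from 20 µg/mL did not pass (adjusted p = 0.12). It passed without a filter (adjusted p = 0.00093), in a fit of all 30 libraries (adjusted p = 0.0049) and in a fit of the 2 groups alone (adjusted p = 0.0034). Within batches the log2 ratio of CPM was 1.10 in batch E and 2.02 in batch D. Against vehicle its value was 0.87 ± 0.30 (adjusted p = 0.12), which passed without replicate 1 of vehicle (1.20, adjusted p = 0.03), without a filter (adjusted p = 0.027) and in the fit of all 30 libraries (adjusted p = 0.018). Yijin-tang had 1.76, 1.55 and 1.53 CPM at 500 µg/mL, a change of 0.80 ± 0.25 from 20 µg/mL (adjusted p = 0.11) and of 0.46 ± 0.23 from vehicle (adjusted p = 0.17). The former passed in a fit of the 2 groups alone (adjusted p = 0.038), and the latter without replicate 1 of vehicle (0.79, adjusted p = 0.026). Soyo-san had 1.17, 1.31 and 1.66 CPM at 20, 100 and 500 µg/mL, the last with an exact Poisson interval of 1.18 to 2.26.

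At 500 µg/mL ABCC2 was higher with Soshiho-tang than with Yijin-tang by 0.79 ± 0.22 (adjusted p = 0.013), and the groups did not overlap. Of all genes tested in that comparison 13.1% were called, 6.69% higher and 6.37% lower, and of the 7 pumps ABCC2 was higher and ABCC4 lower. The ABCC2 call was lost without replicate 3 of Yijin-tang (0.76, adjusted p = 0.052). The difference of the steps from 20 to 500 µg/mL between the formulas was 0.63, which did not pass (adjusted p = 0.40).

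ABCC3, also called MRP3, had the highest counts of the family, 8950 to 18516 per library, and changed little. The gene (ENSG00000108846) lies on the plus strand of chromosome 17 from 50634777 to 50692252. Vehicle libraries had 514, 435 and 456 CPM, and those of Soshiho-tang at 500 µg/mL had 519, 512 and 505 CPM. The vehicle group was spread by its replicate 1 and overlapped the treated group. The change of 0.12 ± 0.05 passed (adjusted p = 0.044), but it was lost in a fit of the 2 groups alone (adjusted p = 0.17), without replicate 1, 2 or 3 of the treated group (adjusted p = 0.12, 0.085 and 0.062) and without replicate 2 or 3 of vehicle (adjusted p = 0.25 and 0.13). Against the tighter libraries at 20 µg/mL, at 458, 451 and 446 CPM, the rise was 0.18 ± 0.05 (adjusted p = 0.0066), and no alternative lost it. Okbyeongpung-san had 526 and 499 CPM at 500 µg/mL against 441 and 427 at 20 µg/mL, a change of 0.24 ± 0.08 that did not pass (adjusted p = 0.39) except in a fit of all 30 libraries (adjusted p = 0.017) and of the 2 groups alone (adjusted p = 0.00014).

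ABCC4, or MRP4, the pump of cyclic nucleotides and prostaglandins, followed another course from ABCG2. The gene (ENSG00000125257) lies on the minus strand of chromosome 13 from 95019829 to 95301475. In vehicle its level was 83.3, 87.3 and 77.4 CPM. In the 9 libraries at 20 µg/mL it lay between 93.8 and 106 CPM, and in the 9 at 100 µg/mL between 88.3 and 105, or between 93.9 and 105 without replicate 2 of Okbyeongpung-san. With Soshiho-tang at 500 µg/mL it was 79.5, 82.8 and 83.9 CPM, within the range of vehicle, while the 3 libraries of Yijin-tang at that dose had 95.5, 96.1 and 102 CPM. Okbyeongpung-san at 500 µg/mL had 94.3 and 96.0 CPM and Soyo-san 95.4.

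The log2 fold change of ABCC4 against vehicle was 0.25 at 100 µg/mL and 0.24 at 20 µg/mL of Soshiho-tang (adjusted p = 0.00058 and 0.0011). It was 0.24 at each dose of Yijin-tang, with adjusted p = 0.00083 at 500 µg/mL, 0.0011 at 100 µg/mL and 0.001 at 20 µg/mL. At 500 µg/mL of Soshiho-tang it was -0.02 ± 0.05 (adjusted p = 0.80). In fits of the 2 groups compared alone the calls at 100 and 20 µg/mL were lost, with adjusted p = 0.054 and 0.073 for Soshiho-tang and 0.054 and 0.05 for Yijin-tang, and in the other alternatives they were kept. Okbyeongpung-san gave 0.21, 0.21 and 0.32 at 500, 100 and 20 µg/mL, and none passed (adjusted p = 0.14, 0.24 and 0.072). The values at 500 and 100 µg/mL passed in the fit of all 30 libraries (adjusted p = 0.014 and 0.025). Without replicate 2 at 100 µg/mL the value of that group was 0.31 ± 0.08 and did not pass (adjusted p = 0.18). The value at 20 µg/mL passed with DESeq2 (adjusted p = 0.013), without a filter (adjusted p = 0.0055), in the fit of all 30 libraries (adjusted p = 0.00041) and without replicate 1 of vehicle, replicate 2 of vehicle or replicate 2 at 100 µg/mL (adjusted p = 0.03, 0.029 and 0.046).

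Between 20 and 500 µg/mL of Soshiho-tang ABCC4 fell by 0.26 ± 0.05 on the log2 scale (adjusted p = 0.00023), and at 500 µg/mL it was lower with Soshiho-tang than with Yijin-tang, with a log2 difference of -0.26 ± 0.05 (adjusted p = 0.00046). The groups did not overlap in either comparison, and neither call was lost under any alternative. Yijin-tang showed -0.00 ± 0.05 between its doses (adjusted p = 1). The step from 20 to 500 µg/mL differed between the 2 formulas by -0.26 ± 0.07 (adjusted p = 0.028), and ABCC4 was the 1 pump called there, among 4.69% of all genes, 2.27% with a positive and 2.42% with a negative difference. That call was lost without replicate 3 at 20 µg/mL or replicate 1 or 2 at 500 µg/mL of Soshiho-tang (adjusted p = 0.1, 0.09 and 0.05) and without any 1 library at 20 µg/mL (adjusted p = 0.057, 0.062 and 0.061) or replicate 3 at 500 µg/mL of Yijin-tang (adjusted p = 0.099).

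The other 3 pumps were not called in any of the 16 comparisons by edgeR. An unadjusted p lay below 0.05 in 1 comparison for ABCC1, in 1 for ABCC5 and in 0 for ABCB1. DESeq2 gave an adjusted p in 16 comparisons for ABCC1, 14 for ABCC5 and 4 for ABCB1, and called 0 of these. ABCC1, or MRP1, the exporter of glutathione conjugates and leukotriene C4, had 127, 104 and 106 CPM in vehicle and 125, 127 and 115 CPM with Soshiho-tang at 500 µg/mL. The vehicle range covers the treated one through its replicate 1. The log2 fold change of 0.11 ± 0.06 against vehicle did not pass (adjusted p = 0.12), but without replicate 1 of vehicle it was 0.22 (adjusted p = 0.00021). Against 20 µg/mL, with 113, 115 and 106 CPM, it was 0.13 ± 0.06 (adjusted p = 0.10), which passed without a filter (adjusted p = 0.039) and in a fit of the 2 groups alone (adjusted p = 0.017). With Okbyeongpung-san at 500 µg/mL, at 125 and 122 CPM, the change of 0.14 ± 0.08 from vehicle did not pass (adjusted p = 0.35) and did without replicate 1 of vehicle (0.24, adjusted p = 0.019). Soyo-san at 500 µg/mL had 125 CPM. ABCC1 (ENSG00000103222) lies on the plus strand of chromosome 16 from 15949577 to 16143074.

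ABCC5, or MRP5, a pump of cyclic nucleotides, ranged from 12.9 to 17.8 CPM over all 30 libraries, and its log2 fold changes ranged from -0.10 to 0.20. All of its neighbouring groups overlapped, as did those of ABCC1. The largest value, 0.20 ± 0.08 for Yijin-tang at 20 µg/mL against vehicle, did not pass (adjusted p = 0.11), but did without replicate 1 of vehicle (0.29, adjusted p = 0.015). ABCC5 (ENSG00000114770) lies on the minus strand of chromosome 3 from 183919934 to 184018015.

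ABCB1, the P-glycoprotein gene (ENSG00000085563, minus strand of chromosome 7 from 87503633 to 87713323), had 6 to 20 counts per library. In vehicle it stood at 0.555, 0.396 and 0.370 CPM, and in the extract libraries between 0.230 and 0.777 CPM. Its SE lay between 0.33 and 0.46 on the log2 scale in the 13 comparisons that are not differences of differences, so changes of the size measured for ABCG2 were not detectable at this depth. The largest difference, -0.98 ± 0.46 between 500 and 20 µg/mL of Okbyeongpung-san, did not pass (adjusted p = 0.67), with 0.245 and 0.485 CPM against 0.689 and 0.694. ABCB1 and its neighbour ABCB4 share long stretches of sequence, so the expected counts of this pair are less certain.

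**Figure D3:**
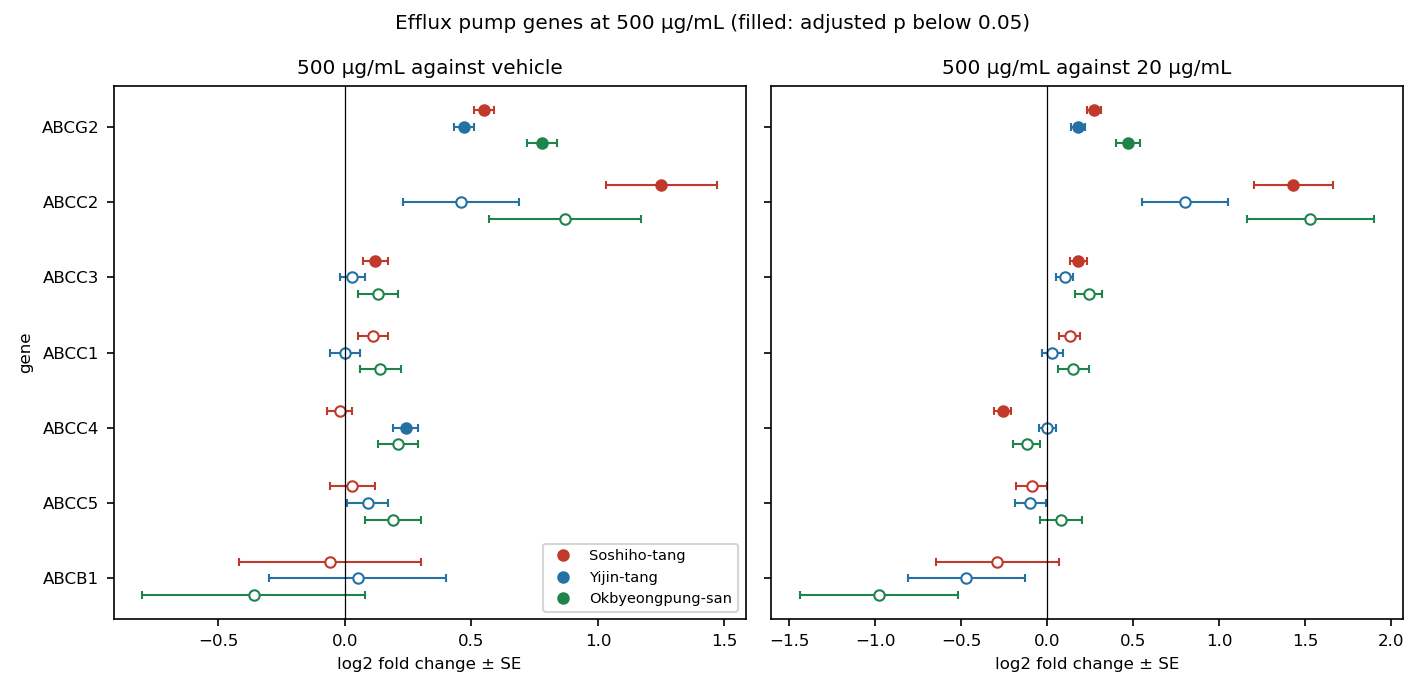
Log2 fold change with its SE of each pump gene at 500 µg/mL, against vehicle on the left and against its own 20 µg/mL group on the right. Filled points have an adjusted p below 0.05. ABCG2 is filled for all 3 formulas in both panels, and ABCC4 is the only pump with a filled point below 0.

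The counts over the 7 pumps are given with the shares of all tested genes that were called. With Soshiho-tang at 500 µg/mL 3 pumps rose against vehicle, where 39.2% of 15895 genes were called, 19.3% higher and 19.9% lower. At 100 µg/mL 2 rose, where 18.3% were called, 9.8% higher and 8.52% lower. At 20 µg/mL 2 rose, where 16.8% were called, 9.36% higher and 7.48% lower. These 2 were ABCG2 and ABCC4, and the same pair rose at each dose of Yijin-tang. There 21.4% of genes were called at 500 µg/mL, 11.0% higher and 10.3% lower. At 100 µg/mL 18.4% were called, 9.71% higher and 8.68% lower, and at 20 µg/mL 16.8%, 9.17% higher and 7.68% lower. With Okbyeongpung-san ABCG2 rose at 500 µg/mL, where 4.38% of 15764 genes were called, 2.19% in each direction, and at 100 µg/mL, where 0.108% were called, 0.0444% higher and 0.0634% lower. At 20 µg/mL no pump was called by edgeR, 2 had an unadjusted p below 0.05 and DESeq2 called 2, where 0.273% of genes were called, 0.14% higher and 0.133% lower. Between 500 and 20 µg/mL of Soshiho-tang 3 pumps rose and 1 fell, where 26.6% of genes were called, 13% higher and 13.6% lower. In that step 1 rose with Yijin-tang, where 1.92% were called, 0.679% higher and 1.24% lower. With Okbyeongpung-san 1 rose, where 0.558% were called, 0.247% higher and 0.311% lower. With Soshiho-tang at 500 µg/mL against vehicle the share of pumps called is near that of all genes, and the ABCG2 call is common to all of these comparisons but the 1 with no pump called. The comparisons with vehicle share its 3 libraries, which are a library set of their own. The median log2 fold change of the pumps between 500 and 20 µg/mL was 0.13 with Soshiho-tang, 0.03 with Yijin-tang and 0.15 with Okbyeongpung-san, beside -0.012, -0.005 and 0.005 over all genes.

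The other transporters of the family were counted in the same dose step, in which 26.6%, 1.92% and 0.558% of all genes were called with Soshiho-tang, Yijin-tang and Okbyeongpung-san. Of the 30 other ABC genes listed outside the ABCC group 19 were tested, and between 500 and 20 µg/mL of Soshiho-tang 4 rose and 3 fell. ABCB6, a porphyrin transporter, rose by 0.44 ± 0.06 (adjusted p = 1.7e-06), and TAP2, a subunit of the peptide transporter of antigen presentation, by 0.20 ± 0.05 (adjusted p = 0.0019). The other rises were those of ABCA10 (0.58) and of the peroxisomal transporter ABCD3 (0.12), and these 2 genes and ABCB4 were named after their values were seen. Among the falls were those of the phosphatidylcholine pump ABCB4 (-1.99 ± 0.44, adjusted p = 0.0011, from 0.582 to 0.141 CPM) and of the cholesterol transporter ABCA1 (-0.84 ± 0.15, adjusted p = 7.1e-05). With Yijin-tang ABCB6 and ABCG1 rose (0.26 ± 0.06 and 1.58 ± 0.13, adjusted p = 0.013 and 1.3e-08), and with Okbyeongpung-san none of 19 was called by edgeR, with 2 below an unadjusted p of 0.05 and 0 called by DESeq2. Of the 4 other ABCC family genes tested, CFTR, the apical chloride channel, fell by 0.66 ± 0.04 with Soshiho-tang (adjusted p = 5.1e-12), from 159 ± 5.25 to 101 ± 0.4 CPM (SD, n = 3 each).

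**Figure D4:**
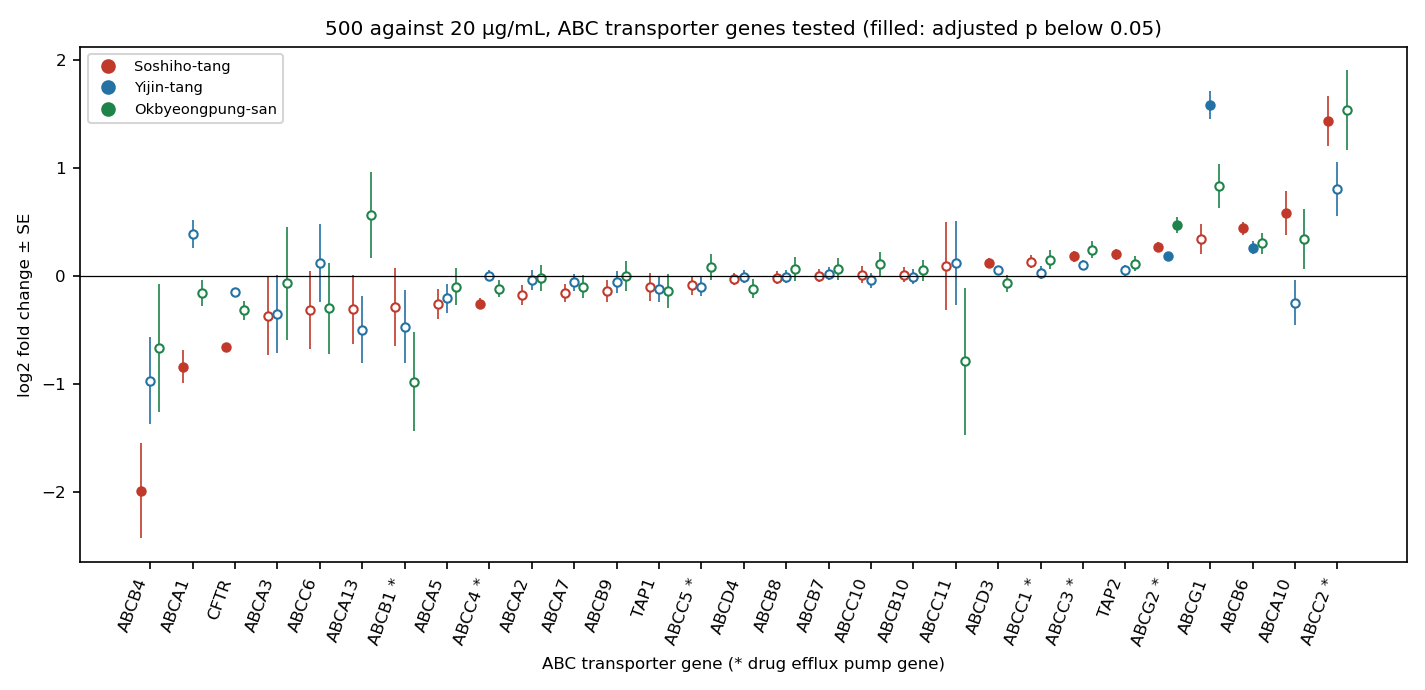
Log2 fold change with its SE between 500 and 20 µg/mL for ABC transporter genes tested, ordered by their value with Soshiho-tang. Filled points have an adjusted p below 0.05 and stars mark the 7 drug efflux pumps. ABCC2 lies at the upper end with 1.43 for Soshiho-tang and ABCB4 at the lower end with -1.99.

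Genes known to act with the pumps were counted in that step too, and each count stands beside the same 26.6%, 1.92% and 0.558% of all genes. Of 7 tested AHR targets, 7 rose with Soshiho-tang, 6 with Yijin-tang and 5 with Okbyeongpung-san, with medians of 1.23, 0.44 and 0.49. Of 12 NRF2 targets, 12, 8 and 9 rose, with medians of 0.84, 0.32 and 0.58, and no member of either list fell. The glutamate-cysteine ligase subunit GCLM, which supplies the glutathione that several ABCC pumps use, rose by 1.09 ± 0.07, 0.38 ± 0.07 and 0.67 ± 0.11 (adjusted p = 4.5e-11, 0.0033 and 0.014). NQO1 belongs to both lists. The medians of the pumps in these steps were 0.13, 0.03 and 0.15, and whether the pumps respond through either factor was not tested. Of 4 tested PXR and CAR targets, 1 rose with each formula, UGT1A1, by 0.75 ± 0.05, 0.32 ± 0.05 and 0.47 ± 0.08 (adjusted p = 3.5e-12, 0.00044 and 0.023). UGT1A1 shares exons with UGT1A6, a gene of the AHR list, so its counts are uncertain.

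Among 21 tested transcription regulators of pump genes, 9 rose and 4 fell with Soshiho-tang, 1 rose with Yijin-tang and none was called by edgeR with Okbyeongpung-san, with 4 below an unadjusted p of 0.05 and 0 called by DESeq2. MAFG, a partner of NRF2, rose by 0.38 ± 0.06 (adjusted p = 7.6e-06) and AHRR, the AHR repressor, by 0.53 ± 0.12 (adjusted p = 0.0012) with Soshiho-tang. The regulator that rose with Yijin-tang was NR1H3, a sterol receptor, by 0.24 (adjusted p = 0.018), named after its value was seen. NR1H3 rose with Soshiho-tang too, by 0.19 (adjusted p = 0.013).

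Glucuronosyltransferases and sulfotransferases make conjugates that ABCC pumps export. Of 15 tested glucuronosyltransferases and sulfotransferases 5 rose and 5 fell with Soshiho-tang and 4 rose with Yijin-tang, and 4 of 14 rose with Okbyeongpung-san. UGT1A1, UGT1A6, UGT1A8 and UGT1A10, which share exons so that their counts are uncertain, rose with Soshiho-tang by 0.75, 0.65, 0.42 and 0.49. The fifth to rise was SULT2B1 (0.43), and those that fell were UGT2B7 (-1.17), UGT2B15 (-1.85), UGT8 (-0.23), SULT1A1 (-0.35) and SULT1C2 (-2.55), named after their values were seen. The adjusted p of these falls was 0.0056, 0.013, 0.00021, 0.00061 and 0.0052 in that order. With Soshiho-tang DESeq2 called 9 genes of the list where edgeR called 10. Of 10 tested glutathione transferases 2 rose, GSTO1 and MGST1, and 1 fell, GSTK1, with Soshiho-tang, a share near that of all genes, and none was called by edgeR or DESeq2 with the other formulas, with 1 below an unadjusted p of 0.05 for Yijin-tang and 0 for Okbyeongpung-san. Of 16 tested uptake transporters 5 rose and 2 fell with Soshiho-tang and 1 rose with Yijin-tang, while none of 17 was called by edgeR with Okbyeongpung-san, with 4 below an unadjusted p of 0.05 and 0 called by DESeq2. The organic cation transporter SLC22A3 rose by 1.64 ± 0.10 and 0.60 ± 0.11 with the first 2 formulas (adjusted p = 4e-13 and 0.0015).

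Of 15 membrane scaffold and trafficking partners, 5 rose and 3 fell with Soshiho-tang, 2 rose and 1 fell with Yijin-tang and 1 fell with Okbyeongpung-san. PDZK1, a scaffold of apical membrane transporters, fell by 0.93 ± 0.10 on the log2 scale with Soshiho-tang (adjusted p = 3.3e-08), from 13.1 to 6.87 CPM, and by 0.60 ± 0.11 with Okbyeongpung-san (adjusted p = 0.033), from 12.4 to 8.11 CPM, a call that DESeq2 did not make. PIM1, a kinase known to phosphorylate ABCG2, rose by 1.33 ± 0.08 with Soshiho-tang (adjusted p = 5.5e-13) and by 0.52 ± 0.09 with Yijin-tang (adjusted p = 0.00072). CAV1, a membrane scaffold of caveolae, rose by 0.96 ± 0.09 and 0.56 ± 0.10 (adjusted p = 7.5e-09 and 0.0012). Among the 12 colon epithelium markers 4 rose and 5 fell with Soshiho-tang and 1 fell with Yijin-tang. VIL1, an actin-binding protein of the brush border, fell in both (-0.55 and -0.19). The others that fell with Soshiho-tang were CDX1 (-0.96), GPA33 (-0.78), LGALS4 (-0.28) and CDH1 (-0.11). The 4 that rose with Soshiho-tang were CEACAM5 (0.70), KRT20 (0.55), KRT8 (0.15) and KRT18 (0.14). These markers were named after their values were seen. With Okbyeongpung-san edgeR called 0, with 4 below an unadjusted p of 0.05, and DESeq2 called 1, and their part in the pump results was not tested. Of the 4 tested markers of other cell types none was called by edgeR or DESeq2 in any of the 3 steps, and 1 lay below an unadjusted p of 0.05 with Soshiho-tang and 0 with the others.

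Genes whose 13 group means followed each pump most closely were searched among 10370 genes, as a description. For ABCG2 these were INTS10 (Pearson r = 0.94), VCP (0.93) and LINC02967 (0.92). For ABCC4 they included IVNS1ABP and RTKN2 (0.93 each), and for ABCC3 they were TMEM201 (0.97), GPX2 and TSKU (0.95 each). For ABCC1 they were TTI1, NOL6 and IMP4 (0.94 each), and for ABCC5 PELI2 (0.85), NPIPB3 (0.77) and SLC11A2 (0.76). VCP, an ATPase that extracts proteins for degradation, stood at 422 CPM in vehicle and at 515 CPM with Okbyeongpung-san at 500 µg/mL. Between pumps, group means of ABCG2 correlated at r = 0.72 with ABCC1, 0.71 with ABCC2, 0.61 with ABCC3 and 0.09 with ABCC4. The points share libraries and the vehicle group, and group sizes differ.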

How the data were processed

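RNA from HT29 cells was sequenced from directional libraries as 100 bp paired reads, per the labels' protocols. The deposited table holds RSEM expected counts for 60675 Ensembl genes in 30 named columns, and 30 unnamed empty columns were not used. The submitters' processing notes name RSEM 1.3.3 and STAR 2.7.3a, with Trim Galore 0.6.5 and FastQC 0.11.9, and the build GRCh38, and the annotation release is not given in the sources used here. Between 9.5% and 11.5% of values per library were not whole, and they were rounded. Symbols were matched for 41673 identifiers, and coordinates and exon lengths come from GENCODE 29. Promoter windows come from RefSeq (GRCh38.p14), which held 5 of the 7 pump genes.

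Counts were scaled by TMM (factors 0.942 to 1.024) and tested by edgeR's quasi-likelihood test (edgeR 4.0.16, limma 3.58.1, R 4.3.3) after its default filter on low counts by group. Benjamini-Hochberg adjustment covered all genes tested, with calls at an adjusted p below 0.05. Vehicle, Soshiho-tang and Yijin-tang were fitted together (21 libraries, 15895 genes), vehicle and Okbyeongpung-san together (9 libraries, 15764 genes), and all 30 libraries (16886 genes) for 2 added comparisons of the dose step between formulas, which make 16 with the 14 planned. The prior count for log2 fold changes is that of edgeR, and levels are CPM on TMM-scaled totals. The precision of a level is limited by depth, and Poisson intervals (exact, 95%) cover counting error only. The wortmannin control named in the design text was not analysed here. Alternatives were RLE scaling, no filter, DESeq2 1.42.0, a replicate block, a batch term, other sets of libraries in the fit and leaving out each library. The edgeR scripts were tested on simulated data.

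Replicate numbers showed no clear pairing of libraries. Over 63 same-numbered pairs of the larger fit the correlation of deviations lay between -0.064 and 0.092, and over its 126 other pairs between -0.076 and 0.076. Over 12 same-numbered pairs of the smaller fit it lay between -0.08 and 0.07. These correlations, taken over all genes tested, cannot exclude a weak pairing. In the comparison of Okbyeongpung-san doses the numbers coincide with the labelled batches. The 7 members and the 13 gene lists were chosen with earlier results of these data known. Named were all 7 pumps in each comparison, and from each list up to 4 genes with the smallest adjusted p at 500 µg/mL of Soshiho-tang against vehicle and up to 2 of Yijin-tang, with a mean of at least 1 CPM. Like patterns were the 3 genes with the highest Pearson r over 13 group means, among genes of at least 5 CPM, for pumps with a mean of at least 2 CPM. Other genes were named after their values were seen. A few named items are not reported here, although counts over lists include them.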

Additional observations from a re-analysis of the deposited data

Results flagged for a closer look

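Differences between formulas, at 500 µg/mL or in the step from 20 to 500 µg/mL, were flagged where the test of the difference itself passed. ABCC2, the apical conjugate pump, was higher with Soshiho-tang than with Yijin-tang at 500 µg/mL by 0.79 on the log2 scale (adjusted p = 0.013 by edgeR's quasi-likelihood test), with 2.98, 2.53 and 3.01 CPM against 1.76, 1.55 and 1.53. ABCC4, the cyclic nucleotide pump, differed between these groups by -0.26 (adjusted p = 0.00046), with 79.5, 82.8 and 83.9 CPM against 95.5, 96.1 and 102. The step of ABCC4 from 20 to 500 µg/mL differed between the formulas by -0.26 (adjusted p = 0.028), a call kept in 11 of 18 alternatives. For ABCC2 the difference of the steps was 0.63, did not pass (adjusted p = 0.40) and was not flagged. The ABCC2 difference at 500 µg/mL was called in 11 of 12 alternatives and lost without replicate 3 of Yijin-tang (adjusted p = 0.052).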

How the results depend on the processing

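Of the single-gene log2 fold changes recomputed under an alternative, 1344 kept their side of the threshold, 39 passed newly and 31 no longer passed. No value that passed in the main fit or in the alternative changed sign between them. Values that passed in neither did change sign in places. For Soshiho-tang against vehicle, ABCB1 at 500 µg/mL ranged from -0.17 to 0.17 over the alternatives, and ABCC2 at 100 µg/mL from -0.32 to 0.23. The number of pumps called moved as follows. In fits of only the groups compared it was 1 in place of 2 for Soshiho-tang and for Yijin-tang at 100 and 20 µg/mL against vehicle, 2 in place of 1 for the Yijin-tang doses, 0 in place of 1 for Okbyeongpung-san at 100 µg/mL, 4 in place of 1 for its doses, and 1 in place of 0 for its step against that of Yijin-tang. In one fit of all 30 libraries Okbyeongpung-san gave 3, 2 and 2 at 500, 100 and 20 µg/mL against vehicle and 3 between doses, in place of 1, 1, 0 and 1. Without a filter it gave 2 at 500 µg/mL, 2 at 20 µg/mL and 2 between doses. With a batch term it gave 0 at 100 µg/mL, and DESeq2 gave 2 at 20 µg/mL and 1 for the step against Yijin-tang. The replicate block, although the numbers showed no clear pairing of libraries, gave 4 in place of 1 at 500 µg/mL and 2 in place of 0 at 20 µg/mL against vehicle, and changed no other count of pumps beyond 1.5 times. The pumps it added were ABCC1, ABCC2 and ABCC3 at 500 µg/mL (adjusted p = 0.032, 0.044 and 0.05) and ABCG2 and ABCC4 at 20 µg/mL (adjusted p = 0.029 and 0.047).

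Leaving out 1 library at a time, the pumps called ranged from 2 to 4 for Soshiho-tang at 500 µg/mL against vehicle, from 2 to 3 for Yijin-tang at 500 and 20 µg/mL, from 1 to 4, 0 to 1 and 0 to 2 for Okbyeongpung-san at 500, 100 and 20 µg/mL, from 0 to 1 between Yijin-tang doses, from 1 to 2 between Soshiho-tang and Yijin-tang, from 0 to 1 for their difference of steps, and was 0 between Okbyeongpung-san doses. Without replicate 2 of Okbyeongpung-san at 100 µg/mL, chosen after seeing the data, the count at 500 µg/mL was 1 and at 20 µg/mL 2.

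Over all genes, the calls against vehicle in fits of only the groups compared were 559, 362, 1042, 575 and 498 in place of 2911, 2677, 3396, 2924 and 2678 (Soshiho-tang at 100 and 20, Yijin-tang at 500, 100 and 20 µg/mL). For Okbyeongpung-san they ranged over all settings from 55 to 2963 at 500 µg/mL (690 as reported), from 3 to 1454 at 100 (17), from 0 to 2425 at 20 (43) and from 12 to 938 between doses (88). Calls ranged from 147 to 869 between Yijin-tang doses (305), from 552 to 1352 for the difference of steps between Soshiho-tang and Yijin-tang (745), from 177 to 645 for Okbyeongpung-san against Soshiho-tang (294) and from 4 to 96 against Yijin-tang (9). Against vehicle, the count at 20 µg/mL was 1529 or 1733 with Soshiho-tang, without its replicate 3 or replicate 3 of vehicle, and 1718, 1707 or 1785 with Yijin-tang, without its replicate 2, its replicate 3 or replicate 3 of vehicle. The cause of these moves was not tested. Depth limits ABCB1 and ABCC2, with 6 to 20 and 14 to 70 counts per library.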
